A study of Mus musculus with 29 samples.

Results

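The 4 genes described here are Dio2, Thra, Thrb and Thrsp, which stand for successive steps of thyroid hormone action. They were picked by gene symbol, not by their values, from 17536 genes present in both deposited expression tables, and all 4 were found there. RNA had been sequenced from frozen subcutaneous white fat of mice that were wild type (WT) or knockout (KO) for Ncoa1, a nuclear receptor coactivator. The mice had been injected intraperitoneally over 7 days with NaCl or with 0.5 mg/kg body weight of CL316,243 (CL), which activates β3-adrenergic receptors. The title of the series asks about sex differences in the thermogenesis of white fat. Among females there were 2 WT mice on NaCl, 4 WT mice on CL, 3 KO mice on NaCl and 3 KO mice on CL. Among males there were 4 WT mice on NaCl, 4 WT mice on CL, 3 KO mice on NaCl and 4 KO mice on CL. Strain, age, the time of day of sampling and the build of the Ncoa1 allele, or whether the knockout is limited to a cell type, were not stated in the sources used here.

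Thyroid hormone reaches the nucleus in steps. Type 2 deiodinase, the product of Dio2, removes an iodine from the prohormone thyroxine (T4) inside the cell and so makes the active hormone T3. T3 binds the nuclear receptors THRA and THRB, which sit on DNA with a retinoid X receptor, hold corepressors without hormone and recruit coactivators such as NCOA1 with it. In brown fat, adrenergic signalling through cAMP is known to induce Dio2, and the T3 made there supports Ucp1 transcription and lipogenesis. Thrsp, also called Spot 14, is a classic T3-responsive gene of liver and fat whose product is tied to fatty acid synthesis. Dio2 (gene ID 13371) lies on chromosome 12 at 90724552 to 90739038 and Thra (21833) on chromosome 11 at 98740776 to 98769006, in GRCm38. Thrb (21834) lies on chromosome 14 at 17659225 to 18040097 and Thrsp (21835) on chromosome 7 at 97412933 to 97417550.

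The promoters of Dio2 and Thrsp are shown because these are the deiodinase and the target gene on which most of the comparisons below turn. Each runs from 250 bases before to 50 bases after the RefSeq start (GRCm38.p6, minus strand), at chr12:90738989-90739288 for Dio2 and chr7:97417501-97417800 for Thrsp. Capitals mark matches to the motifs searched.
Dio2: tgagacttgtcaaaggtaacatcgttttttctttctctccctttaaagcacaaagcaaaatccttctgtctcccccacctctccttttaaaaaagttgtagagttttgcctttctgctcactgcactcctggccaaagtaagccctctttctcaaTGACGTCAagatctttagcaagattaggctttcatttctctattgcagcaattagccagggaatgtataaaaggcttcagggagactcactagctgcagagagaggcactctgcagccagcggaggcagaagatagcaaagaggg
Thrsp: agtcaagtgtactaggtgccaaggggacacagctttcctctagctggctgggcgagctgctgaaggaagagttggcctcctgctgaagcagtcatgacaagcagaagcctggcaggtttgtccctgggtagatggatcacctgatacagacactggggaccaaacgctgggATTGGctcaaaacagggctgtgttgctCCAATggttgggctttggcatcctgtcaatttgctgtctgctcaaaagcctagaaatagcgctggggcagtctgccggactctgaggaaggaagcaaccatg
The Dio2 window held the full cAMP response element TGACGTCA, which begins at -95 from the start and contains its core TGACG on both strands. Of 32851 mouse promoter windows of this length, 1.79% held the full element and 20.8% the core. The Thrsp window held CCAAT at -52 and its reverse complement, ATTGG, at -79, and 37.4% of windows held a CCAAT box on either strand. The nuclear receptor core motif AGGTCA, found in 16.3% of windows, was in neither sequence. Nor was the repeat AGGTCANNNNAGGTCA, the classic thyroid hormone receptor spacing, which 0.0152% of windows held. A Thrb window, not shown, held AGGTCA at -184 and the core TGACG at -56. These are letter matches within the window and say nothing of binding.

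The tables give FPKM, fragments per kilobase of transcript scaled to the size of the library, for 29 libraries, 24 in a first table and 5 in a second. A library's FPKM summed to between 563251 and 707150, and its absolute depth is unknown. The second table holds both WT females on NaCl, 1 KO female on NaCl and 2 KO males on NaCl, so table and treatment are partly mixed. A pair of library names stands in both tables, for replicate 3 of the WT females on NaCl and replicate 3 of the KO males on NaCl, and each was counted as 1 mouse at the mean of its columns. Each of these groups also has 1 sample record with no column of its own, so the paired columns may come from 2 mice, which would make the number of mice 3 and 4 in place of 2 and 3. Those columns correlated at 0.958 and 0.975 over genes, below the best match of the second-table column with another mouse of its group, at 0.972 and 0.991. Both best matches are themselves second-table columns, so a difference between tables and a difference between mice cannot be told apart here. Ncoa1 itself was at 1.47 to 2.9 FPKM in KO libraries and 4.93 to 9.16 in WT libraries, and the Y-linked Ddx3y was at 0 to 0.01 in females and 9.62 to 15.34 in males. All 10 adipocyte markers reached 1 FPKM in every library. The 15 skeletal muscle markers summed to 69470 FPKM in 1 KO female on NaCl, to 4301, 3931 and 1065 in 1 male each of the WT CL, KO NaCl and KO CL groups, to 253.5 and 231.0 in a library each of the other KO males on NaCl, and to at most 63.03 elsewhere. The 14 mammary epithelium markers summed to 48400 in the second-table column of the repeated WT female, to 169.0 to 968.6 in the other female libraries and to 1.24 to 25.47 in males.

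The 4 genes spanned the range of expression in this fat. FPKM is scaled per length, so levels can be set side by side. Thrsp was among the most abundant transcripts, at 893.3 to 7273 FPKM, which ranked it between 5 and 92 within a library and made up 0.149% to 1.03% of the summed FPKM. Thra lay at 29.32 to 78.29 FPKM, Thrb at 1.82 to 4.11 and Dio2 at 0.13 to 4.32. All 4 passed the filter for testing, 1 FPKM in at least 3 mice. Dio2 reached 1 FPKM in 9 of 27 mice, namely 2 WT females on NaCl, 3 WT females, 1 KO female, 2 WT males and 1 KO male on CL. The other deiodinases were close to absent, with Dio1 at no more than 0.1 FPKM and Dio3, which inactivates thyroid hormone, at no more than 0.53 in any library. Ordered by group mean, every pair of neighbouring groups overlapped in its libraries for each of the 4 genes.

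**Figure D1:**
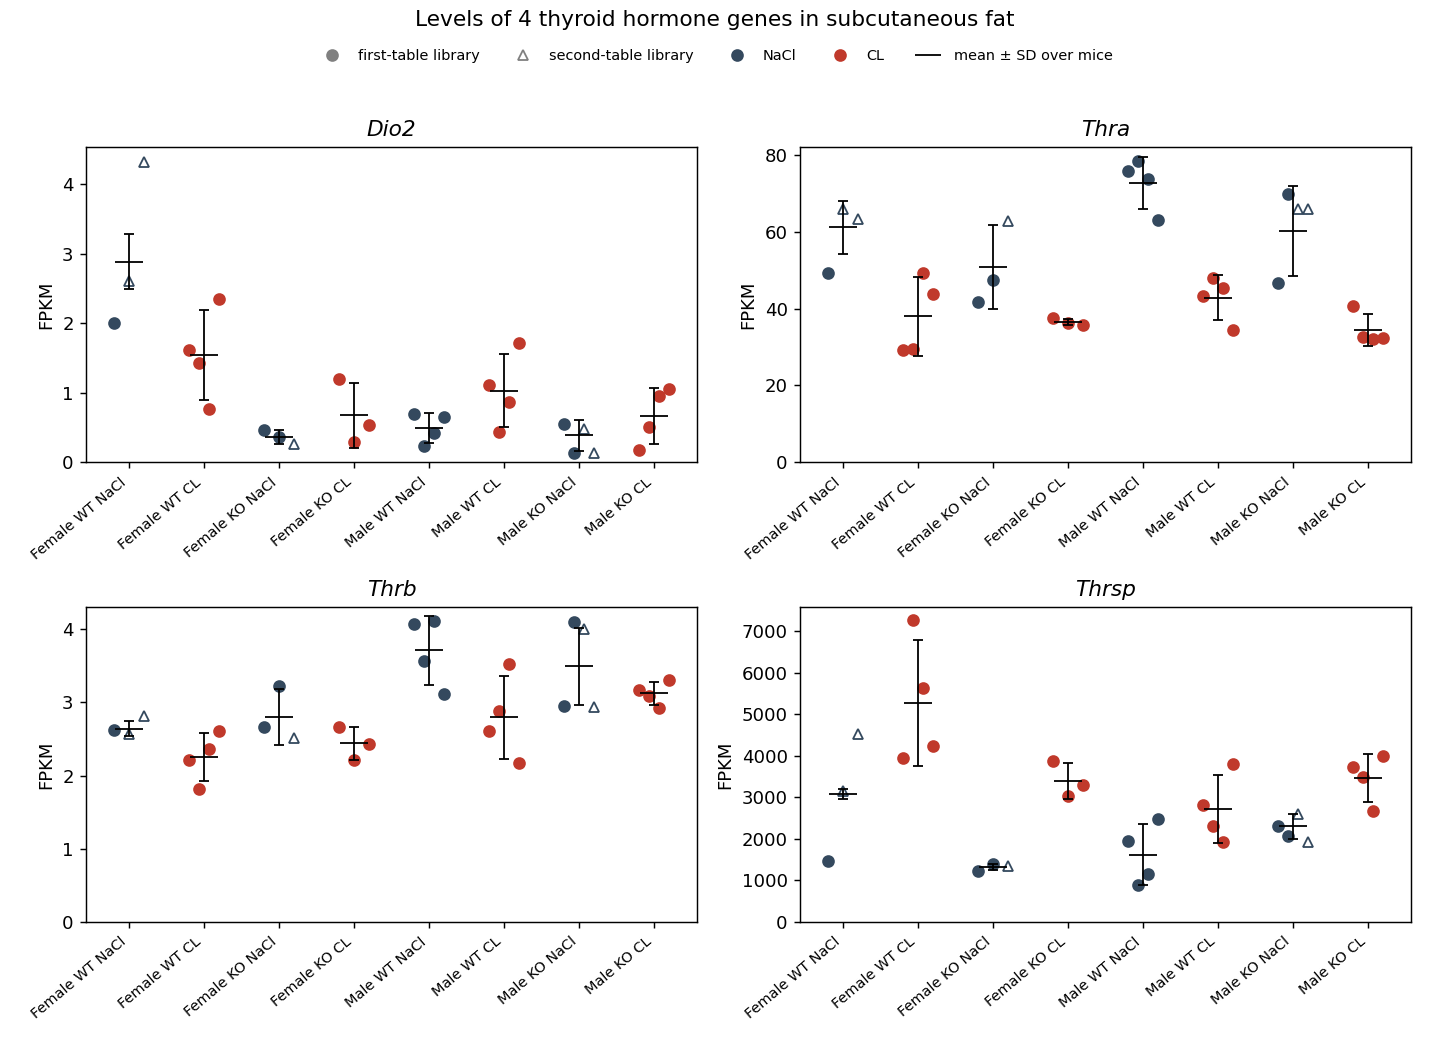
FPKM of each gene (y axis, from 0) in every library of the 8 groups (x axis), NaCl in dark blue and CL in red, with second-table libraries as open triangles and the mean and SD over mice as black bars. The Dio2 mean is highest in WT females on NaCl, Thra is lower in CL groups than in NaCl groups, and Thrsp is higher.

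Dio2, the activating enzyme, was highest in WT females. On NaCl, WT female replicate 1 was at 2.61 FPKM, and the columns named for replicate 3 were at 2.01 and 4.32, giving a mean of 2.89 ± 0.39 (SD, n = 2 mice). KO females on NaCl were at 0.26, 0.47 and 0.36 FPKM (0.363 ± 0.105, n = 3). The WT mean was 7.95 times the KO mean and the libraries did not overlap. On the log2(FPKM + 1) scale, which understates changes of low genes, the KO value was lower by -1.54 ± 0.31 (SE; limma, Benjamini-Hochberg adjusted p = 0.0224). In that comparison 0.509% of the 13174 genes tested passed an adjusted p of 0.05, and 4.62% had KO libraries all below WT libraries. The call rests on few mice: adjusted p was 0.235 without WT replicate 3, 0.126 without WT replicate 1 and 0.269 without KO replicate 1. It was 0.225 in the first table alone, where the difference was -1.09, and 0.0715 with a pseudocount of 0.1.

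Males on NaCl did not show that contrast. WT males were at 0.69, 0.23, 0.42 and 0.66 FPKM (0.50 ± 0.22, n = 4), and KO males at 0.55, 0.48 and, for the repeated name, 0.14 and 0.13 (0.388 ± 0.222, n = 3). The groups overlapped, and the log2 difference of KO against WT was -0.04 ± 0.28 (limma adjusted p = 0.942, 95% interval -0.61 to 0.53; 7.34% of genes passed). WT females on NaCl were 5.78 times WT males on NaCl, with every female library above every male library, a log2 difference of 1.46 ± 0.34 (limma adjusted p = 0.0166; 3.34% of all genes passed and 12% had females all above males). Adjusted p was 0.165 without WT female replicate 3 and 0.146 in the first table alone, where the difference was 1.02. In KO mice on NaCl the sexes overlapped, with a female minus male difference of -0.04 ± 0.26 (7.77% of genes passed).

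With CL, Dio2 did not pass in any of the 4 groups. WT females on CL were at 1.61, 1.43, 0.77 and 2.35 FPKM (1.54 ± 0.65, n = 4), below the NaCl mean with overlap, and the log2 difference was -0.72 ± 0.34 (limma adjusted p = 0.216). KO females on CL were at 1.20, 0.29 and 0.54 FPKM (0.677 ± 0.470, n = 3). WT males on CL were at 1.11, 0.44, 0.87 and 1.71 FPKM (1.03 ± 0.53, n = 4), and KO males on CL at 0.18, 0.51, 0.95 and 1.05 (0.673 ± 0.404, n = 4). In these 3 groups CL means lay above NaCl means with overlapping libraries, by log2 differences of 0.22 ± 0.27, 0.41 ± 0.22 and 0.18 ± 0.28 (limma adjusted p = 0.722, 0.264 and 0.742). The mean of the 4 CL effects was 0.02 ± 0.16, with a 95% interval from -0.32 to 0.36. The response of WT females differed from that of WT males by -1.14 ± 0.41 and from that of KO females by 0.94 ± 0.39, KO minus WT, with unadjusted p = 0.0107 and 0.0246 but limma adjusted p = 0.425 and 0.927. No more than 0.0531% of genes passed for a difference between responses: 0.0228% in each of these comparisons, 0.0531% for genotype in males and 0.0304% for sex in KO mice.

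Averaged over the 4 group pairs, Dio2 was lower in KO than in WT by -0.62 ± 0.12 (limma adjusted p = 0.00146). The KO mean was below the WT mean in all 4 pairs, but the pairs were unequal. The fitted difference was -1.54 in NaCl females, the only pair to pass alone. It was -0.04 in NaCl males, where it changed sign in 6 of 22 alternative settings. The call for the average held in 42 of 42 alternative settings, from -1.19 to -0.53, the latter in the first table alone. Every one of these settings kept the NaCl female pair, so they do not show the effect without it. In the same fit 17.3% of genes passed for genotype. On CL alone, KO against WT was -0.60 ± 0.24 in females and -0.28 ± 0.22 in males (limma adjusted p = 0.0984 and 0.628), where 12.6% and 1.94% of genes passed. The female minus male difference was 1.46 in WT NaCl mice, the only one to pass alone, and 0.32 ± 0.22 in WT CL mice. It was -0.04 in KO NaCl mice and 0.001 ± 0.238 in KO CL mice. The average of these unequal differences was 0.44 ± 0.13 (limma adjusted p = 0.0173), against 24.4% of genes that passed for sex. That call was lost without WT female replicate 3 on NaCl (0.42, adjusted p = 0.0574), in the first table alone (0.36, 0.0923) and under quantile normalization (0.25, 0.166).

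Other measures were set beside Dio2. Ucp1, which encodes the thermogenic uncoupling protein, was at 24.86 to 223.9 FPKM in WT females on NaCl and at 0.1 to 1.0 in KO females on NaCl, 0.29 to 3.41 in WT males on NaCl and 0.13 to 9.72 in KO males on NaCl. It was at 139.2 to 489.7 in WT females on CL and 219.4 to 528.8 in WT males on CL, against 11.45 to 18.37 and 6.97 to 23.82 in KO females and KO males on CL. In WT males, then, Ucp1 libraries on CL lay wholly above those on NaCl, while Dio2 libraries overlapped. All 10 brown and beige markers were in the tables and summed to 595.1 to 2004 FPKM in WT females on NaCl and 249.4 to 1121 in KO females on NaCl. The sums were 363.9 to 812.9 in WT males and 349.0 to 797.1 in KO males on NaCl. On CL they were 4494 to 6828 in WT females, 1791 to 2335 in KO females, 2987 to 5962 in WT males and 1506 to 2341 in KO males. In WT females the sums were thus higher on CL, where the Dio2 mean was lower. The mammary markers were highest in the library with the highest Dio2, 4.32 FPKM, and the part of either marker list in the Dio2 values was not tested. In bulk tissue, fewer cells of a type and less RNA per cell cannot be told apart. The annotation places the opposite-strand Gm26512 over 100 exon bases of Dio2 (1.72% of its exon bases), and the strand setting of the counting is not given, so reads there cannot be told apart.

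**Figure D2:**
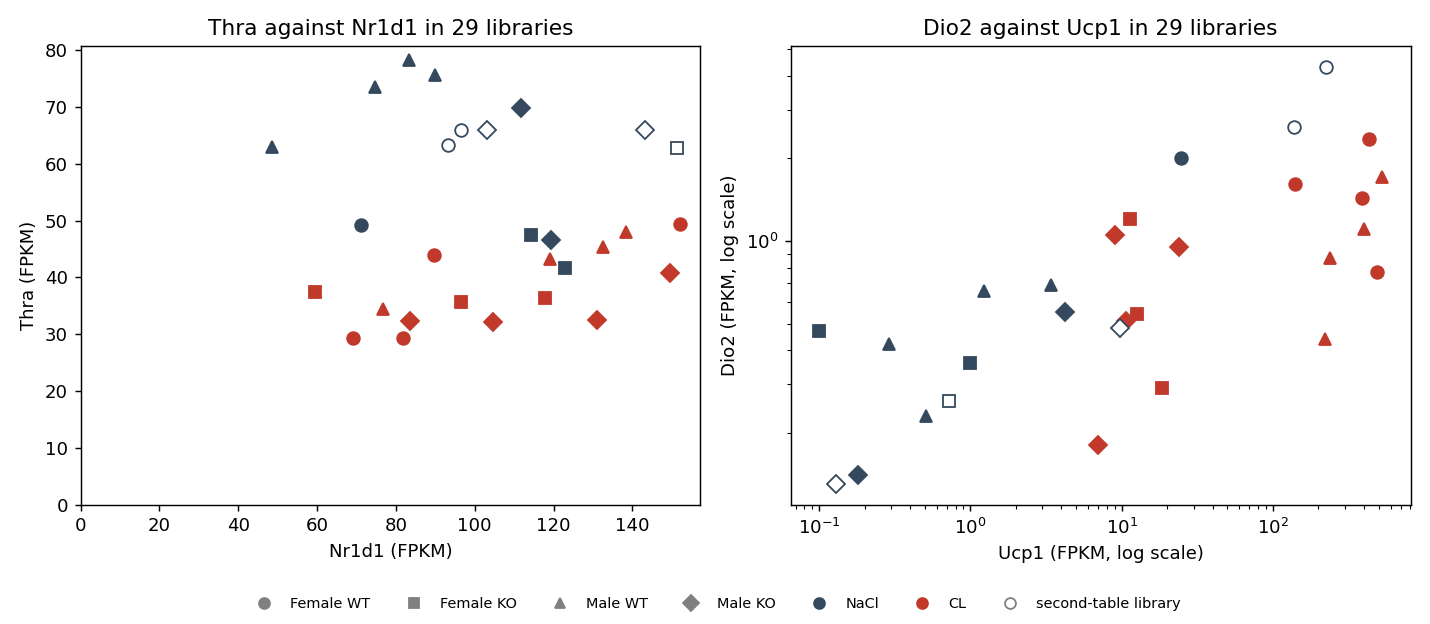
Each point is 1 of 29 libraries, by sex and genotype (shape) and treatment (colour), with second-table libraries open. On the left Thra FPKM (y) is set against Nr1d1 FPKM (x), and Thra ranges from 29.32 to 78.29 while Nr1d1 ranges from 48.67 to 152.1. On the right Dio2 (y) is set against Ucp1 (x) on log axes, and the 3 WT female NaCl libraries stand at the top beside or above the WT CL libraries.

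Thra, the predominant receptor gene here, fell with CL. WT males on NaCl were at 75.65, 78.29, 73.57 and 62.98 FPKM (72.6 ± 6.7, n = 4), and those on CL at 43.18, 48.01, 45.38 and 34.53 (42.8 ± 5.8, n = 4). Every CL library lay below every NaCl library, and the NaCl mean was 1.70 times the CL mean. The log2 difference was -0.76 ± 0.14 (limma adjusted p = 0.00127) and passed in 24 of 24 alternative settings. In WT males 11.3% of genes passed, and 16.1% had CL libraries all below NaCl libraries.

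KO males had the same order. On NaCl they were at 46.60, 65.94 and, for the repeated name, 69.76 and 65.93 FPKM (60.1 ± 11.8, n = 3), and on CL at 40.70, 32.52, 32.15 and 32.29 (34.4 ± 4.2, n = 4). The libraries did not overlap (11.1% of genes had CL libraries all below NaCl libraries), but the log2 difference of -0.53 ± 0.18 did not pass (limma adjusted p = 0.073; 7.25% of genes passed). KO females were at 62.86, 41.74 and 47.45 FPKM on NaCl (50.7 ± 10.9, n = 3) and 37.44, 36.35 and 35.76 on CL (36.5 ± 0.9, n = 3), again without overlap (9.4% of genes in this direction), at -0.28 ± 0.17 (limma adjusted p = 0.39). WT females overlapped by a narrow margin: 65.92, 49.30 and 63.24 FPKM on NaCl (61.1 ± 6.8, n = 2) against 29.32, 29.41, 49.37 and 43.87 on CL (38.0 ± 10.2, n = 4), at -0.33 ± 0.22 (limma adjusted p = 0.379).

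The 4 effects of CL on Thra averaged -0.47 ± 0.11 (limma adjusted p = 0.0027). This was past the threshold in 43 of 43 alternative settings, from -0.67 to -0.42 and -0.54 in the first table alone, beside 25% of genes that passed for CL. The CL mean was below the NaCl mean in all 4 groups, with ratios of NaCl to CL means of 1.61 in WT females, 1.39 in KO females, 1.70 in WT males and 1.75 in KO males. No difference between these responses passed, the largest being the female minus male difference in WT mice, 0.42 ± 0.26 (limma adjusted p = 0.616). That difference ran from 0.06 to 0.53 over the alternative settings. The fitted values are adjusted for the table, which is partly mixed with treatment. Without this adjustment the CL difference was -0.70 in WT females and -0.78 in KO males (limma adjusted p = 0.0265 and 0.00494). The size of the response in WT females thus depends on that adjustment. KO males on NaCl had less Thra than WT males on NaCl in their fitted values, -0.53 ± 0.18, without passing (limma adjusted p = 0.0719). The average genotype effect was -0.23 ± 0.08 (limma adjusted p = 0.0501), and the average sex effect -0.22 ± 0.08, female minus male (limma adjusted p = 0.0589).

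Markers of other cells differed with CL too. In WT males 3 of 12 macrophage markers and 3 of 12 stromal and endothelial markers fell, and in KO males 12 of 12 and 6 of 12 did, with 1 stromal marker higher. Counts were 2 and 3 of 12 in WT females and 1 and 0 of 12 in KO females. Of all genes 11.3% passed in WT males, 7.25% in KO males, 3.56% in WT females and 7.42% in KO females. The marker counts varied with the processing, as given at the end. Averaged over the 4 groups, as for the Thra average, 12 of 12 macrophage and 7 of 12 stromal markers fell, where 25% of all genes passed. Their medians were -1.05 and -0.82 against -0.03 for all genes. The macrophage markers summed to 904.0 to 1274 FPKM in WT males on NaCl and 500.1 to 793.1 on CL, and to 939.0 to 3367 and 432.5 to 896.9 in KO males. The stromal and endothelial markers summed to 1536 to 2022 and 1115 to 1288 in WT males, and to 2244 to 4168 and 971.3 to 1897 in KO males. In females the macrophage sums were 619.0 to 1918 on NaCl and 626.4 to 844.0 on CL in WT mice and 1860 to 3200 and 1006 to 1702 in KO mice, and the stromal sums 1227 to 3372, 682.7 to 1273, 2719 to 3657 and 1536 to 2081 in that order. These sums were thus lower on CL with no overlap in both male groups and in KO females, and overlapped in WT females for both lists. Their part in the lower Thra was not tested. Thra shares 263 exon bases, 98768157 to 98768419 on chromosome 11, with Nr1d1 on the opposite strand, which is 5.7% of the exon bases of Thra and 8.55% of those of Nr1d1. Nr1d1 encodes the clock repressor REV-ERBα. Its mean was 74.1 ± 18.1 FPKM in WT males on NaCl and 116.7 ± 27.9 on CL, the opposite order to Thra but with overlapping libraries. The other groups did not share this contrast, and their libraries overlapped too. Nr1d1 means on NaCl and CL were 89.4 and 98.2 in WT females and 116.7 and 117.1 in KO males. In KO females they were 129.5 and 91.4, the same order as Thra. Over the 24 first-table libraries, r between log2 levels of the pair was -0.088, and that of deviations from group means, over 23 libraries, was 0.621. The annotation lists 9 Thra transcripts, 4 of them coding, and the tables give 1 value for the gene, so the hormone-binding and non-binding forms cannot be told apart.

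Thrb, the second receptor gene, was lower in females. WT females on NaCl were at 2.57, 2.62 and 2.81 FPKM (2.64 ± 0.10, n = 2) and WT males at 4.07, 3.57, 4.11 and 3.11 (3.72 ± 0.47, n = 4). Here the sexes did not overlap, which 14.2% of genes showed in this direction. On CL, WT females were at 2.22, 1.82, 2.37 and 2.61 FPKM (2.26 ± 0.33, n = 4) and WT males at 2.61, 2.88, 3.53 and 2.17 (2.80 ± 0.57, n = 4), with overlap.

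Among KO mice on NaCl, Thrb was at 2.51, 2.67 and 3.23 FPKM in females (2.80 ± 0.38, n = 3) and at 2.95, 4.01 and, for the repeated name, 4.10 and 2.94 in males (3.49 ± 0.53, n = 3). On CL, KO females were at 2.67, 2.22 and 2.43 FPKM (2.44 ± 0.23, n = 3) and KO males at 3.17, 3.09, 2.92 and 3.31 (3.12 ± 0.16, n = 4), with no overlap (8.09% of genes in this direction; 11% of genes passed). Each of the 4 sex differences was negative and none passed alone. They were -0.39 ± 0.17, -0.22 ± 0.11, -0.23 ± 0.13 and -0.26 ± 0.12 in WT NaCl, WT CL, KO NaCl and KO CL mice. Their average was -0.28 ± 0.07 (limma adjusted p = 0.00429) and passed in 43 of 43 alternative settings, with -0.26 in the first table alone. The CL effect on Thrb was -0.17 ± 0.08 on average (limma adjusted p = 0.137) and at most -0.32 ± 0.11, in WT males (limma adjusted p = 0.076). The genotype effect on Thrb was 0.05 ± 0.06, with a 95% interval from -0.08 to 0.18.

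**Figure D3:**
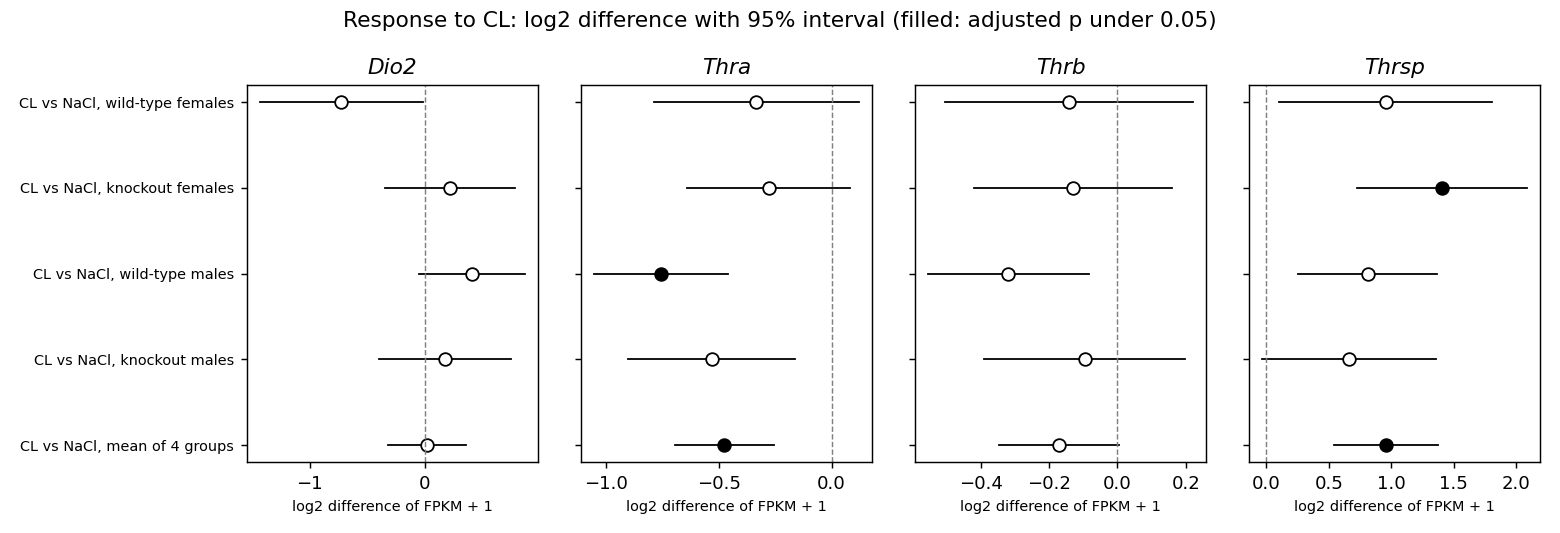
Log2 difference of FPKM + 1 between CL and NaCl (x axis), with its 95% interval, for each gene (panel) in the 4 groups and averaged over them (y axis), filled where limma's adjusted p is under 0.05. Thra in WT males, Thrsp in KO females and the averages of both genes are filled, and Dio2 and Thrb are open throughout.

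Thrsp, the hormone-responsive gene, rose with CL. KO females were at 1349, 1231 and 1385 FPKM on NaCl (1321 ± 81, n = 3) and 3867, 3034 and 3292 on CL (3398 ± 426, n = 3). The CL mean was 2.57 times the NaCl mean with no overlap, and the log2 difference was 1.41 ± 0.33 (limma adjusted p = 0.0117). In KO females 7.42% of genes passed, and 10.5% had CL libraries all above NaCl libraries. The call was lost without KO female replicate 1 on CL (1.31, adjusted p = 0.0617), without KO female replicate 2 on NaCl, the library richest in muscle transcripts (1.37, 0.0541), and with array weights (1.25, 0.115).

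In the other 3 groups the CL mean was also the higher one, without passing. KO males were at 2303, 2602 and, for the repeated name, 2065 and 1935 FPKM on NaCl (2302 ± 301, n = 3) and 3733, 3485, 2678 and 4005 on CL (3475 ± 572, n = 4), with no overlap (7.21% of genes in this direction) and a log2 difference of 0.66 ± 0.33 (limma adjusted p = 0.245). WT males were at 1958, 893.3, 1152 and 2479 FPKM on NaCl (1620 ± 730, n = 4) and 2815, 2301, 1919 and 3816 on CL (2713 ± 822, n = 4), with overlap, at 0.81 ± 0.27 (limma adjusted p = 0.0539). WT females were at 3164 and, for the repeated name, 1469 and 4526 FPKM on NaCl (3081 ± 118, n = 2), and at 3947, 7273, 5647 and 4243 on CL (5277 ± 1523, n = 4), with overlap, at 0.95 ± 0.41 (limma adjusted p = 0.18; 3.56% of genes passed). The repeated name spans 1469 to 4526, wider than the gap between the group means. With its first-table column in place of the average the difference was 1.45 (adjusted p = 0.0127), with its second-table column 0.44 (0.605), and under quantile normalization 0.21 (0.776).

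Averaged over the 4 groups, CL raised Thrsp by 0.96 ± 0.20 (limma adjusted p = 0.00155), past the threshold in 43 of 43 alternative settings, from 0.75 to 1.16, the latter in the first table alone. CL means exceeded NaCl means 1.71 times in WT females, 2.57 in KO females, 1.68 in WT males and 1.51 in KO males. None of the differences between these responses passed. The widest was female minus male in KO mice, 0.74 ± 0.43 (limma adjusted p = 0.568).

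Sex and genotype differences in Thrsp were not of the same sign in every group, and only the sex difference in WT mice on CL passed. On CL, WT females exceeded WT males with no overlap, 1.95 times in the mean and by 0.96 ± 0.27 in log2 (limma adjusted p = 0.0177; 17.9% of genes passed and 9.18% had females all above males). That call was lost without WT female replicate 2 (0.80, adjusted p = 0.0704), WT male replicate 2 (0.90, 0.0558) or WT male replicate 3 (0.81, 0.0758) on CL, and under quantile normalization (0.47, 0.232). Among KO mice on NaCl the order was the opposite, with every female library below every male library (5.49% of genes), at -0.77 ± 0.31 (limma adjusted p = 0.152). The sex difference was 0.82 ± 0.41 in WT mice on NaCl and -0.02 ± 0.29 in KO mice on CL (limma adjusted p = 0.331 and 0.97). In the first table alone the former was -0.025. KO females lay below WT females without overlap on NaCl, by -1.05 ± 0.37, and on CL, by -0.60 ± 0.29, and neither passed (limma adjusted p = 0.302 and 0.172; 12.6% of genes passed on CL and 6.88% had KO females all below WT females). KO males lay above WT males by 0.54 ± 0.33 on NaCl and 0.39 ± 0.27 on CL (limma adjusted p = 0.309 and 0.563). The average genotype effect was -0.18 ± 0.15 and the average sex effect 0.25 ± 0.16.

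**Figure D4:**
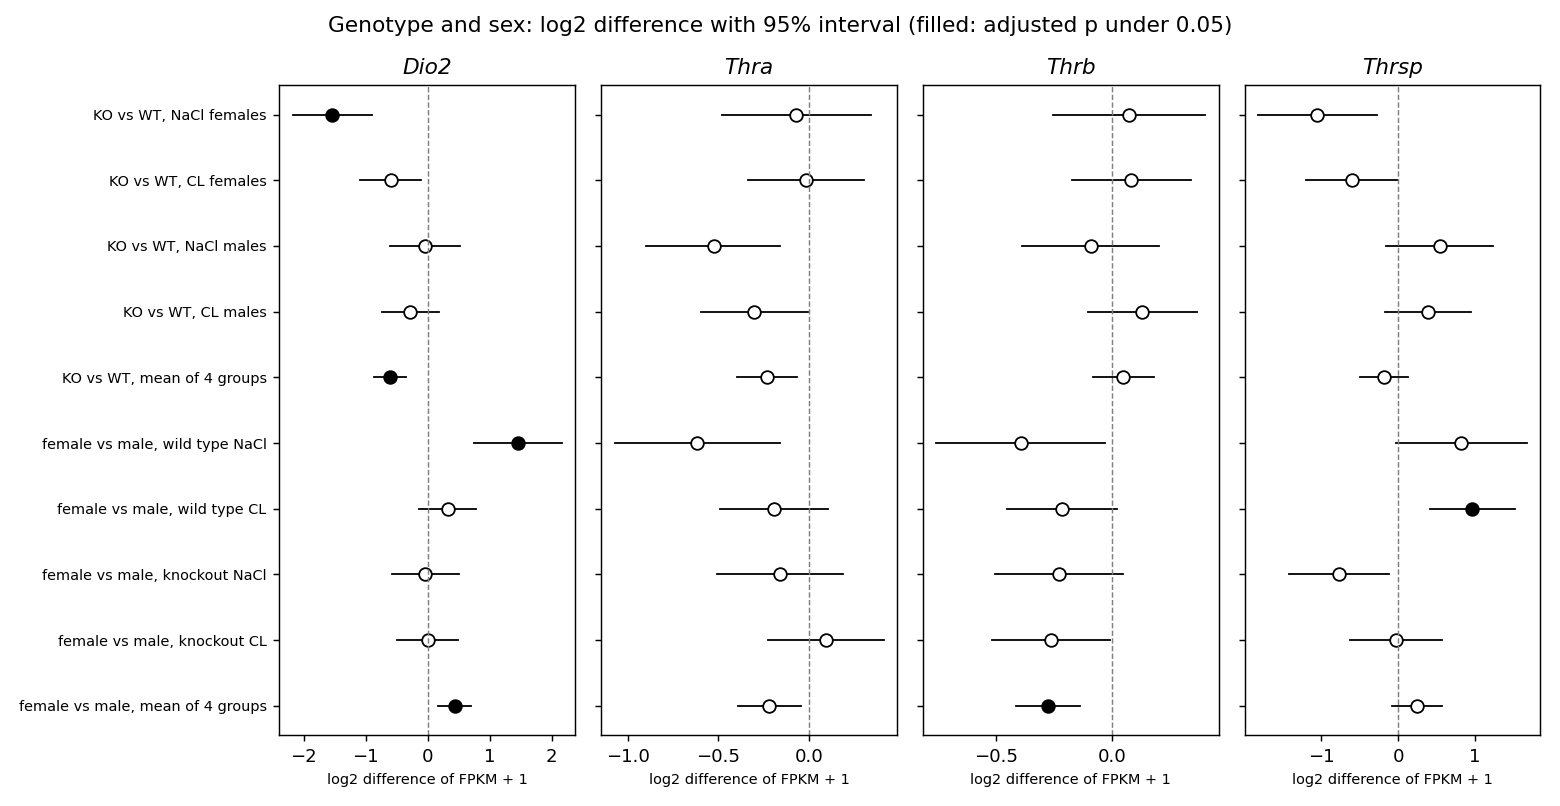
Log2 difference of FPKM + 1, with its 95% interval, for KO against WT (upper 5 lines) and female against male (lower 5 lines) for each gene, filled where limma's adjusted p is under 0.05. Dio2 is filled for KO against WT in NaCl females and for female against male in WT NaCl mice, with both averages, Thrb for the sex average, and Thrsp for sex in WT mice on CL.

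The rest of the pathway was followed through lists that leave out the 4 genes. The transporters that carry thyroid hormone into cells had 6 members tested. After CL none rose in any group, and 3 fell in WT males. These were Slc16a10 (MCT10), which carries T3 and aromatic amino acids, by -0.98 ± 0.13, Slc7a8, an amino acid exchanger that also carries iodothyronines, by -1.12 ± 0.26, and its heavy chain partner Slc3a2 by -0.57 ± 0.17 (limma adjusted p = 3.01e-05, 0.00574 and 0.0307). Slc7a8 also fell in KO females, by -1.15 ± 0.31 (limma adjusted p = 0.0281), while 0 of 6 passed in WT females. Of all genes 11.3% passed in WT males, 7.42% in KO females and 3.56% in WT females. The median log2 difference of the 6 lay between -0.14 in WT females and -0.37 in WT and KO males. The median of all genes lay between -0.05 and 0.01 over the same comparisons.

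Deiodinase regulators, genes for selenoprotein synthesis and for ubiquitin tagging of the DIO2 protein, had 11 members tested, including neither Dio1 nor Dio3. CL raised Sephs2, the selenophosphate synthetase that supplies the selenium of deiodinases, by 0.84 ± 0.18 in KO females and 0.70 ± 0.15 in WT males (limma adjusted p = 0.00677 and 0.00329). In WT males Pstk, a kinase of the same selenocysteine route, rose by 0.50 ± 0.13, and the ubiquitin ligase gene Stub1 fell by -0.36 ± 0.10 (limma adjusted p = 0.0124 and 0.0192). Usp20, a deubiquitinase that rescues DIO2 from degradation, rose by 0.53 ± 0.14 in KO males (limma adjusted p = 0.0278), and 0 of 11 passed in WT females. The shares of all genes that passed were 7.42% in KO females, 11.3% in WT males, 7.25% in KO males and 3.56% in WT females. Averaged over genotype pairs, Marchf6, which encodes TEB4, a ligase that tags DIO2, was higher in KO mice by 0.31 ± 0.06 (limma adjusted p = 0.000673; 17.3% of all genes passed). This gene was chosen for its role or after its value was seen. The other regulators are not described for genotype, and any bearing on the DIO2 protein was not tested.

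Of 19 receptor partners, the retinoid X receptors, corepressors, coactivators and Mediator subunits, none rose after CL in any group. Those that fell numbered 0 in WT females, 1 in KO females, 3 in WT males and 1 in KO males. The shares of all genes that passed were 3.56%, 7.42%, 11.3% and 7.25% in that order. Rxrg, a retinoid X receptor, fell by -1.18 ± 0.25 in KO females, -0.91 ± 0.21 in WT males and -0.98 ± 0.26 in KO males (limma adjusted p = 0.00655, 0.00589 and 0.0233). In WT males the corepressor gene Nrip1 fell by -0.64 ± 0.20 and Ncoa1 by -0.35 ± 0.11 (limma adjusted p = 0.0422 and 0.0464). Averaged over groups 4 of 19 fell, Rxrg by -0.99 ± 0.15, Ncoa1 by -0.31 ± 0.08, Kat2b by -0.30 ± 0.09 and Rxra by -0.28 ± 0.10, of which Kat2b encodes an acetyltransferase and Rxra another retinoid X receptor (limma adjusted p = 0.000129, 0.00931, 0.0196 and 0.0355). The other 15 did not pass, the median of the list was -0.09, and 25% of all genes passed for CL. For sex, averaged over groups, 2 of 19 were higher and 5 lower in females, where 24.4% of all genes passed, among them Rxra by -0.38 ± 0.08 and Rxrg by -0.42 ± 0.12 (limma adjusted p = 0.000889 and 0.0146).

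Other genes known to respond to T3 did not move as one. Of 25 tested, 1 rose in WT females, 4 rose and 1 fell in KO females, 10 rose in WT males and 1 rose in KO males. Of all genes 3.56%, 7.42%, 11.3% and 7.25% passed in the same order, so WT males had the most calls in both. Their calls were led by Ucp1 at 7.28 ± 0.55, the D-box factor Dbp, also a clock output gene, at 3.06 ± 0.25, and the mitochondrial glycerophosphate dehydrogenase Gpd2 at 1.87 ± 0.25 (limma adjusted p = 4.58e-08, 1.12e-07 and 3.56e-05). Dbp was the single member called in WT females, at 3.10 ± 0.39, and in KO males, at 1.28 ± 0.31 (limma adjusted p = 0.000183 and 0.0164). Klf9 and Hr, direct receptor targets used as readouts of T3 in other tissues, did not pass for CL, at 0.01 and -0.47 on average. Hr was lower in KO than in WT mice by -1.07 ± 0.17 on average (limma adjusted p = 0.000177), 1 of 5 that were lower, with 1, Dbp, higher, where 17.3% of all genes passed for genotype. Of the 26 genes on the list, 9 also stand on another list here, so the counts are not separate.

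Lipogenic genes, the processes to which Thrsp is tied, rose with CL in 7 of 17 in KO females, 10 of 17 in WT males, 1 of 17 in KO males and 0 of 17 in WT females. The shares of all genes that passed were 7.42%, 11.3%, 7.25% and 3.56% in that order. KO females were led by the carboxylase Acacb at 1.75 ± 0.26, the citrate carrier Slc25a1 at 1.66 ± 0.33, the regulator Srebf1 at 1.13 ± 0.23 and Insig1 at 1.72 ± 0.38 (limma adjusted p = 0.000329, 0.00381, 0.00451 and 0.00883). In WT males Acacb rose by 1.98 ± 0.21 and the elongase Elovl6 by 3.16 ± 0.45 (limma adjusted p = 2.09e-06 and 6.71e-05), and Nr1h3, which encodes LXRα, was the 1 that fell. Averaged over groups 11 of 17 rose and 0 fell, with a median of 0.79, where 25% of all genes passed. Mid1ip1, the paralog of Thrsp whose product pairs with it, was not among them, at 0.41 (limma adjusted p = 0.195). The median was 0.31 in WT females, 1.13 in KO females, 0.86 in WT males and 0.60 in KO males.

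Of 20 genes of the cAMP response, 2 rose and 5 fell after CL on average, where 25% of all genes passed. Ucp1 and the G protein subunit gene Gnas rose, by 3.73 ± 0.41 and 0.30 ± 0.07, and the AP-1 factor gene Fosl2 fell by -0.81 ± 0.13 (limma adjusted p = 2.7e-06, 0.00367 and 0.000158). Adrb3, the receptor for CL, was not called by CL. Tshr, the thyrotropin receptor gene and 1 of 2 thyroid gland genes tested, fell by -1.05 ± 0.20 on average (limma adjusted p = 0.000799). In the annotation it overlaps none of the 4 genes.

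**Figure D5:**
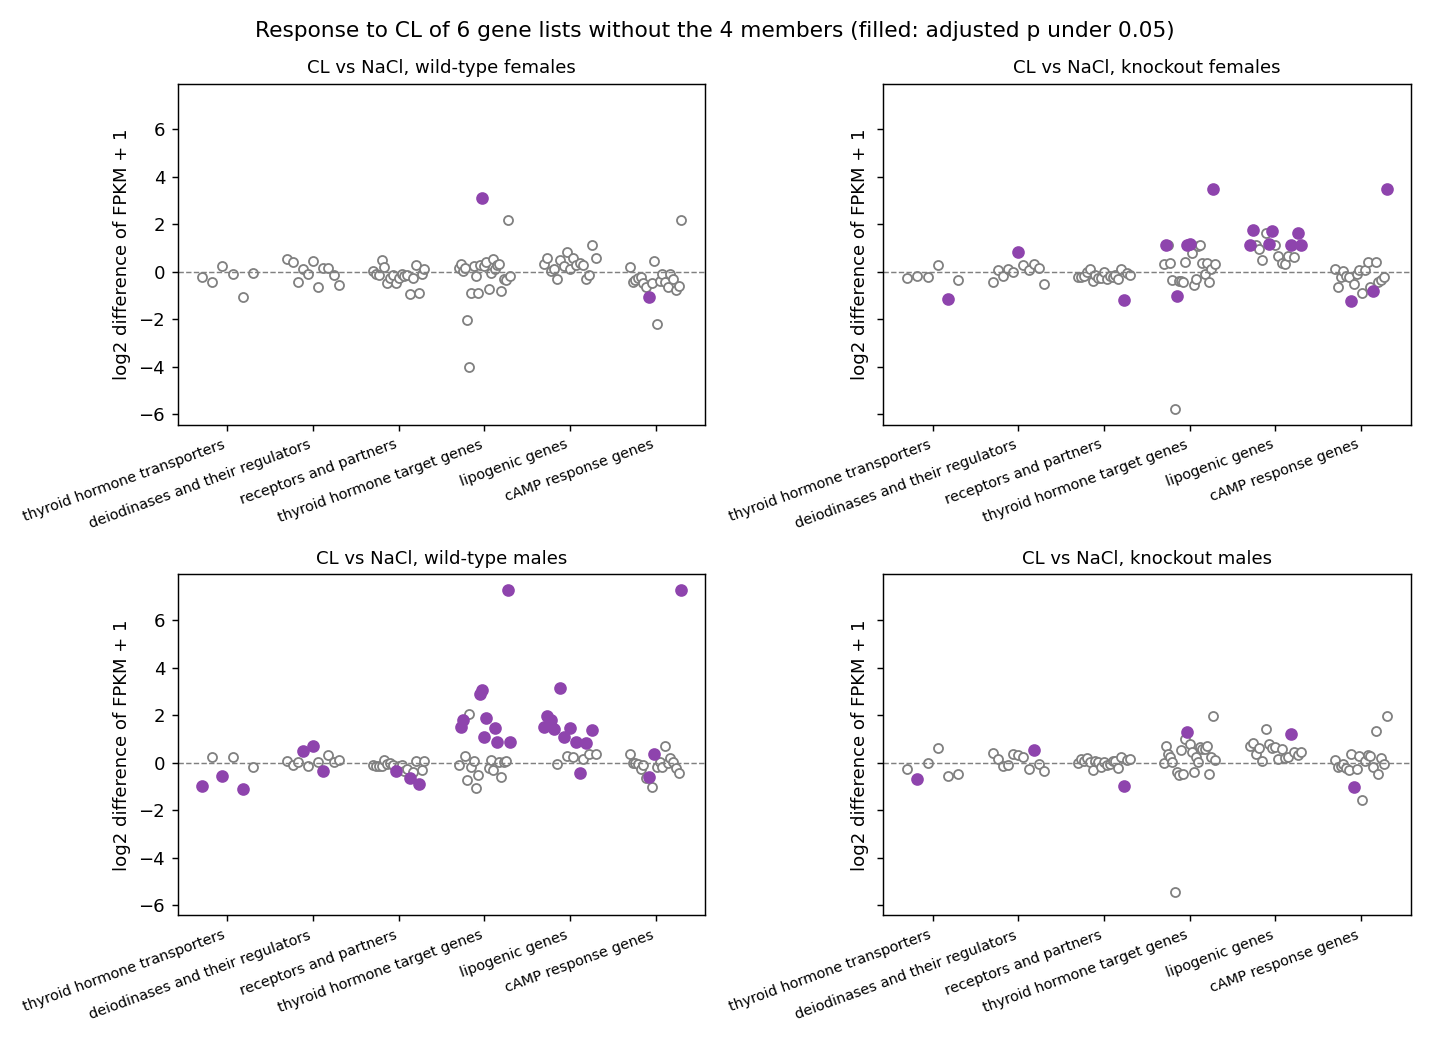
Log2 difference of FPKM + 1 between CL and NaCl (y axis) for each tested gene of 6 lists (x axis) without the 4 genes described here, in the 4 groups (panels), purple where limma's adjusted p is under 0.05 and open grey otherwise. WT males show 10 lipogenic and 10 T3-responsive genes raised, KO males 1 of each, and WT females 0 and 1.

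The genes with levels most like each of the 4 were ranked by Pearson r on log2(FPKM + 1) over the 24 first-table libraries, which share treatment, sex and genotype groups. For Thrsp these were Ppcs, a coenzyme A synthesis enzyme (r = 0.929), Taldo1 of the pentose phosphate pathway (0.922), Agpat2 of triglyceride synthesis (0.91), Traf4 (0.902) and Prelid3b (0.902). In deviations from group means r ran from 0.656 for Taldo1 to 0.909 for Agpat2, so the likeness was there within groups too, to an unequal degree. For Thra they were Zfp185 (0.947), the matrix protease gene Adamts5 (0.932), the endothelial and mural adhesion gene Mcam (0.93), Dtx2 (0.928) and Lhfpl2 (0.92). In deviations these ran from 0.72 for Lhfpl2 to 0.88 for Mcam. For Thrb they were Sec16b (0.895), the ferroxidase gene Heph (0.894), Kif13b (0.892), Tshz2 (0.892) and Lrrc58 (0.886). For Dio2 r was lower, with Morn1 at 0.791, Kctd1 at 0.777, Stap2 at 0.751, Fam83h at 0.724 and Doc2g at 0.721. In deviations these fell to between 0.357 for Fam83h and 0.603 for Morn1. Ucp1 was at 0.659 with Dio2, which was 0.36 in deviations. Among themselves, Thra and Thrb had r = 0.725 and Thra and Thrsp -0.672, which was -0.306 in deviations.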

How the data were processed

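FPKM values per gene were taken from the 2 deposited tables (18658 and 17677 genes). Per the submitters' processing notes the reads were aligned with HISAT2 2.0.4 to GRCm38/mm10, and the program that made the FPKM, its annotation and its strand setting are not stated in the sources used here. Libraries were matched to titles through library names, and all 29 columns were used. Of 29 sample records, 2 had no column of their own, and 2 names stood in both tables, leaving 27 mice. Groups come from titles, because the number in the CL treatment label differs between samples. Nothing in the labels ties a library to 1 animal beyond its name. The p-values therefore rest on the spread between these samples, pooled over groups, after the columns of a repeated name were averaged. Symbols followed RefSeq for 17428 gene IDs.

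Differences were computed with limma 3.58.1 (R 4.3.3) on log2(FPKM + 1), with a mean per group, the table as a covariate, a trended prior and 1 spread shared by all groups (18 residual degrees of freedom). The 13174 genes at 1 FPKM or more in at least 3 mice were tested, two-sided, with Benjamini-Hochberg adjustment over all of them and a threshold of 0.05. The fit was also run on simulated normal data with changes placed in WT males on CL only. Those data held no table effect and no repeated names, so the handling of these was not tested. The averages over 4 group pairs were added after the data were seen. The 4 genes and the lists were chosen with earlier results of these data known. In each list up to 4 genes of smallest adjusted p were to be named per comparison. Marchf6 and Hr, and the genes set beside a result, are exceptions chosen for their role or after their values were seen, and 1 gene of the transporter list is not reported here. Promoters are from RefSeq (GRCm38.p6), which supplied 3 of the 4 genes, Thra being the other, and exon overlaps from the GRCm38 annotation. FPKM carries no depth, so no counting interval is given. Alternatives were pseudocounts of 0.1 and 0.5, 2 filters on low values, 3 scalings, other treatments of the tables and repeated names, array weights, a replicate block, each mouse left out in turn and the 4 mice highest in muscle transcripts left out together.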

Additional observations from a re-analysis of the deposited data

Results flagged for a closer look

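Thra in KO males on CL was 40.7 FPKM in replicate 1, while the other 3 mice of that group lay between 32.15 and 32.52, and this gap to the nearest mouse is large for the range of the group. Of 16 groups of 4 mice examined over the 4 genes, this was the single one, and chance gives about 1 in 20. Without this mouse the CL effect on Thra in KO males was -0.61, with a limma adjusted p of 0.0421, against -0.53 and 0.073 with it.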

How the results depend on the processing

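Over 76 differences of the 4 genes, 2061 alternatives were run, of which 27 ended a call, 49 made one and 0 reversed a called direction. Uncalled differences changed sign in 101 alternatives. Dio2 was not tested under the filter of 1 FPKM in 10 mice. The values below are log2 differences, and the cause of each change was not tested.

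Fitting only the groups compared ended the calls of Thrsp for CL in KO females (1.37), Dio2 for KO against WT in NaCl females (-1.56) and for sex in WT NaCl mice (1.58), and Thrsp for sex in WT CL mice (0.96). Array weights ended those of Thrsp in KO females (1.25) and Dio2 for genotype in NaCl females (-1.66). They made calls for CL in WT males of Thrb (-0.30) and Thrsp (0.72), for CL in KO males of Thra (-0.70), for genotype on CL of Dio2 in females (-0.85) and Thra in males (-0.41), for sex in KO CL mice of Thrb (-0.31), and for the Thra averages of genotype (-0.22) and sex (-0.26). A pseudocount of 0.1 ended the Dio2 calls for genotype in NaCl females (-2.81) and sex in WT NaCl mice (2.61). The filter of 1 FPKM in 10 mice made the Thra average for genotype a call (-0.23).

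The first table alone ended the Dio2 calls for genotype in NaCl females (-1.09), sex in WT NaCl mice (1.02) and average sex (0.36), and made calls for CL of Thrsp in WT females (1.80), Thra in KO males (-0.72) and Thrb on average (-0.20). Without the table covariate, CL calls were made for Thra in WT females (-0.70) and KO males (-0.78), Thrsp in WT males (0.81) and Thrb on average (-0.19). First-table columns of repeated names ended the Dio2 call in NaCl females (-1.26) and made CL calls for Thrsp in WT females (1.45), Thra in KO males (-0.67) and Thrb on average (-0.20). Second-table columns made Thra calls for genotype in NaCl males (-0.62) and on average (-0.24). Separate mice for repeated names made CL calls for Thrsp in WT females (1.17), Thra in KO males (-0.65) and Thrb on average (-0.21).

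Quantile normalization ended the calls of Dio2 for sex in WT NaCl mice (1.25) and on average (0.25) and of Thrsp for sex in WT CL mice (0.47). It made calls of Thrsp for CL in WT males (0.91) and genotype in NaCl females (-1.49), and of the Thra averages for genotype (-0.24) and sex (-0.24). Scaling to equal summed FPKM made calls for sex of Thrb in WT CL mice (-0.34) and of the Thra average (-0.29). These scalings and median centring moved the median of all genes by up to 0.16 in a comparison. Leaving out the 4 mice highest in muscle transcripts, chosen after seeing the data, ended the calls of Thrsp in KO females (1.41) and of Dio2 for sex in WT NaCl mice (1.35).

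Leaving out 1 mouse changed calls within these ranges: Thrsp for CL, 1.31 to 1.49 in KO females and 0.56 to 1.05 in WT males; Thrb for CL in WT males, -0.41 to -0.24; Thra for CL in KO males, -0.64 to -0.43. Dio2 ranged from -1.58 to -1.49 for genotype in NaCl females, 1.37 to 1.52 for sex in WT NaCl mice and 0.38 to 0.49 for average sex. Thrsp for sex in WT CL mice ranged from 0.80 to 1.14, and the Thra averages from -0.26 to -0.20 for genotype and -0.25 to -0.19 for sex.

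Replicate numbers did not pair mice in every group (correlations of deviations from -0.481 to 0.262), and in WT males, at 0.067 to 0.262, 3 of 4 mice correlated best with their own number. With the replicate number as a block, Thrsp for CL in WT males (0.81) and the Thra sex average (-0.25) became calls, no other call of the 4 genes changed, and the genes called fell from 469 to 151 for CL in WT females, from 67 to 40 for genotype in NaCl females and from 1665 to 1078 for genotype in CL females.

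Counts of all genes called were less stable, with 145 of 520 alternatives beyond 1.5 times the reported count. For CL they ran from 0 to 2240 in WT females (reported 469), 1 to 1684 in KO females (978), 901 to 3778 in WT males (1485) and 0 to 1580 in KO males (955). Of the counts by list, 417 of 2730 alternatives were beyond that limit. The lipogenic genes raised by CL numbered 8 to 11 in WT males, 0 to 11 in KO females, 0 to 4 in KO males and 0 to 5 in WT females. The T3-responsive genes numbered 8 to 11, 0 to 5, 0 to 3 and 0 to 5 in the same order. Macrophage markers lowered by CL numbered 0 to 10, 0 to 1, 0 to 12 and 0 to 10 in that order. Stromal and endothelial markers lowered by CL numbered 0 to 7, 0 to 2, 0 to 8 and 0 to 6.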
